A study of Flaveria robusta and Flaveria sonorensis and Flaveria ramosissima with 24 samples.

Results

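The response of leaf transcripts to low CO2 was examined in Flaveria robusta, the C3 species of a series of 4 Flaveria species. The genes described are those with a mean TPM (a relative transcript abundance, corrected for transcript length) of 1 or more over the 6 F. robusta libraries, which held for 14194 of the 29562 rows of the deposited table. The labels give no genotype beyond the species. Both groups were grown in chambers at 22 °C under light of 200 µmol m-2 s-1, with 16 h of light, 8 h of dark and 70% humidity, and RNA came from mature leaves that had newly expanded. The 3 control libraries came from plants at a CO2 setting of 380, and the 3 low CO2 libraries from plants kept for 2 weeks at a setting of 100. The other species had the same growth and CO2 settings, with 3 libraries per group. They were F. sonorensis and F. ramosissima, both C3-C4 intermediates, and F. trinervia, a C4 species. The labels write both settings in µmol m-2 s-1, a unit of light flux, so the CO2 values are kept here as bare settings. Plant age, and whether replicates were separate plants or pools, are missing from the labels used here, so p-values measure the spread between these libraries only.

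In a C3 leaf, CO2 is fixed directly by Rubisco, an enzyme that also reacts with oxygen. The oxygen reaction gains ground as CO2 falls, and its product has to be recycled through photorespiration, which releases CO2 again. C3 plants have no pump to concentrate CO2 around Rubisco, which is why they are used as the starting point when C4 evolution is studied. Leaf RNA of land plants is typically dominated by a small number of nuclear genes for chloroplast proteins, so that a few abundant transcripts can set the relative level of all others. The rows of the table carry gene numbers without names. No role is therefore given to any gene, the leaf label could not be checked against marker genes, and genes are described by their level, their rank and their response.

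The 6 libraries fell into their labelled groups. Across the 14194 genes, Spearman's rho lay between 0.938 and 0.979 for pairs within a group and between 0.792 and 0.874 for pairs of a control and a low CO2 library. The sum of the deposited values ran from 914241 to 922130 TPM per library. Between 11683 and 11982 rows were listed at 0, with no gap between the groups, and the smallest value above 0 was 0.01 TPM in each of the 6 libraries. The reads behind a library are unknown because TPM keeps no depth, and errors below are spreads between libraries.

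Transcripts were concentrated in fewer genes at low CO2. The number of most abundant genes that together held 50% of the TPM was 74, 76 and 69 in the controls and 40, 32 and 37 in the low CO2 libraries, so the groups did not overlap. The mean fell from 73 ± 3.61 (SD, n = 3) to 36.3 ± 4.04 genes (two-sided exact permutation p = 0.1). The effective number of genes, which is the number of equally abundant genes that would give the same Shannon entropy, was 861, 874 and 835 in control air and 518, 442 and 492 at low CO2. It thus dropped to 0.565 times the control mean, also without overlap (two-sided exact permutation p = 0.1). A p of 0.1 is the smallest that 3 libraries against 3 allow, and 7 measures of concentration were compared in this way, with a Benjamini-Hochberg adjusted p of 0.117 for the 6 measures that reached 0.1.

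**Figure D1:**
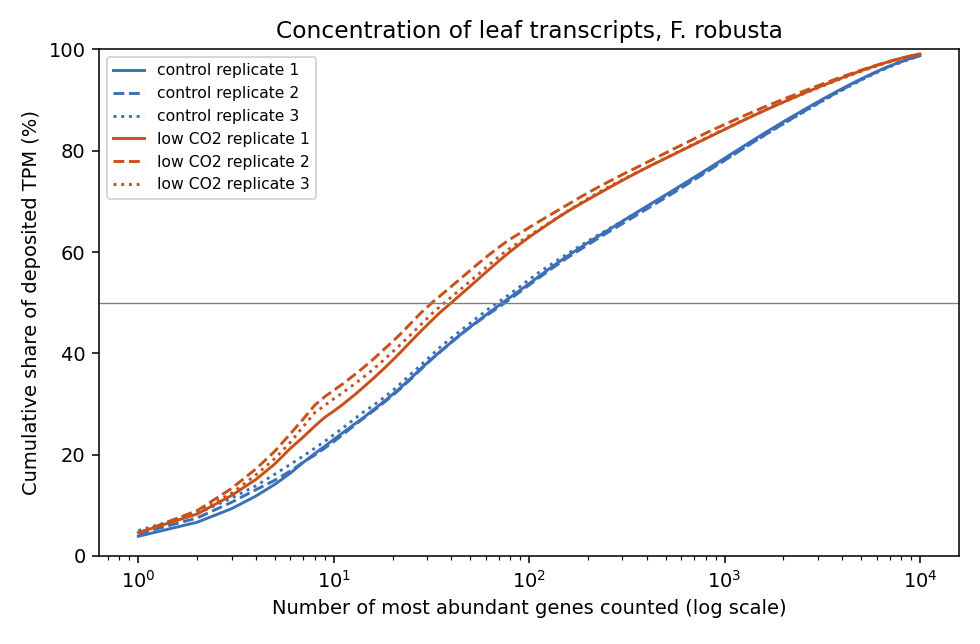
Cumulative share of deposited TPM (y axis, %) held by the most abundant genes of each library, counted from the highest (x axis, log scale), with 1 line per library and a grey line at 50%. The 3 low CO2 lines reach 50% after 32 to 40 genes and the 3 control lines after 69 to 76.

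The gain did not lie in the very top gene. The most abundant gene of a library held 3.89%, 4.39% and 5.01% of the TPM in the controls and 4.61%, 4.52% and 4.47% at low CO2, a difference of 0.104 percentage points that was smaller than the spread between controls (exact permutation p = 0.7). Among the leave-one-out sets its sign turned without control replicate 1, where the difference was -0.167. The top gene was not the same throughout. In low CO2 replicate 2 another gene led, at 41676 TPM, while the gene that led the other libraries had 40299 TPM. With the same gene taken in all libraries the difference was 0.0539 points (exact permutation p = 0.9). The top 10 genes of a library held 23.0%, 22.6% and 23.9% in control air and 28.6%, 32.7% and 31.0% at low CO2. Their mean share thus rose by 7.61 percentage points (exact permutation p = 0.1), the top 100 added 9.73 points and the top 1000 added 6.29 points. The increase in share was therefore gained between the top gene and about the top 100, and it narrowed again when further genes were counted.

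At the other end, fewer genes reached a level of 1 TPM, a relative limit, although the number of rows listed at 0 overlapped between the groups. A TPM of 1 or more was listed for 14110, 14014 and 14310 genes in the controls and for 13404, 13558 and 13592 at low CO2. The means were 14145 ± 151 and 13518 ± 100 (SD, n = 3), again without overlap (exact permutation p = 0.1). The difference was also present at higher limits. Between 6575 and 6668 genes reached a TPM of 10 in control air but only 5124 to 5371 at low CO2, and between 948 and 976 genes reached 100 TPM in control air against 741 to 765. A level of 1000 TPM was reached by 109 to 115 genes in control air and 95 to 105 at low CO2. At 10000 TPM and above the groups overlapped, with 12 genes in each control and 14, 12 and 11 at low CO2.

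The source of the shift was then described gene by gene. Comparing group means over all rows of the table, those under 1 TPM included, 5768 genes gained and 12918 lost TPM. The summed rises came to 202096 TPM and the summed falls to 196024 TPM. The rises were concentrated, since 12 genes made up 50% of them, while 165 genes were needed for 50% of the falls. The 10 largest rises held 47.9% of all TPM gained, and the 10 largest falls held 23.3% of all TPM lost.

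The 881 abundant genes (mean TPM of 100 or more over the 6 libraries) were the class that gained. They held 76.7%, 76.0% and 76.2% of the TPM in the controls and 82.6%, 83.5% and 82.8% at low CO2. The share of the 5302 middle genes (10 to under 100 TPM) fell from 19.2% ± 0.239 to 13.8% ± 0.510 (SD, n = 3), and that of the 8011 low genes (1 to under 10 TPM) from 4.30% ± 0.113 to 3.15% ± 0.0494. None of these shares overlapped between the groups (exact permutation p = 0.1 in each class). Abundant genes lost much TPM as well: their summed rises of 183596 TPM stood against summed falls of 117926 TPM. The middle class rose by 14249 TPM and fell by 63149 TPM. The abundant class thus gained 65669 TPM on balance. The middle class fell by 48901 TPM and the low class fell by 10378 TPM.

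**Figure D2:**
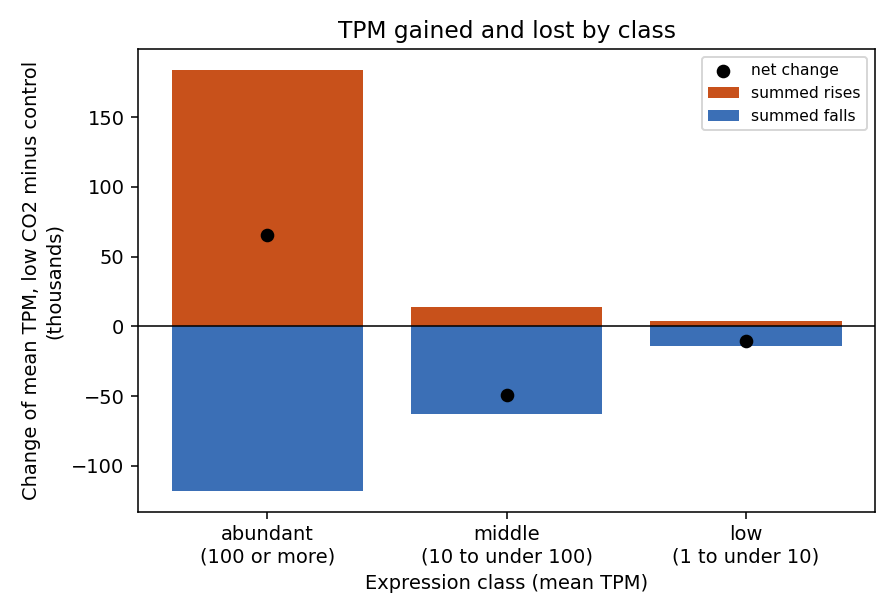
Summed rises (above 0) and summed falls (below 0) of mean TPM, low CO2 minus control, in units of 1000 TPM (y axis) for the 3 expression classes (x axis), with the net change as a black point. Abundant genes held both the largest rises and the largest falls, with a net gain of 65669 TPM, while the other classes lost on balance.

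The 10 most abundant genes of control air and those of low CO2 had 8 members in common. A group of neighbours in the control ranking, ranks 5 to 9, rose together. Gene00282, control rank 5, had the largest rise in mean TPM of all called genes. Its TPM was 19646, 17154 and 22289 in the controls and 29115, 41676 and 38704 at low CO2. The groups did not overlap, and the gene moved to rank 2, with a log2 fold change of 0.88 on the log2(TPM + 1) scale (SE 0.171, limma adjusted p = 0.00545). Under quantile normalization the change was 0.45 and not called (limma adjusted p = 0.0865, with the other alternatives between 0.00211 and 0.0300).

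The other 4 genes of this group behaved alike. Across the 5 genes the low CO2 mean was between 1.76 and 1.96 times the control mean, log2 fold changes ran from 0.81 to 0.96, and limma adjusted p values from 0.00168 to 0.00779. Low CO2 replicate 1 had the lowest of the 3 low CO2 values in 5 of the 5 genes, and low CO2 replicate 2 the highest in 4 of them. Together these 5 genes held 9.71%, 8.02% and 9.53% of the TPM in the controls and 13.7%, 19.0% and 17.5% at low CO2. They alone accounted for 35.0% of all TPM gained.

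The other genes at the top did not follow that pattern. Control rank 1 stayed rank 1 by group mean, with 35636, 40154 and 45810 TPM in the controls and 42432, 40299 and 41178 at low CO2 (log2 fold change 0.03, SE 0.120, limma adjusted p = 0.827). Control rank 2 had means of 28114 and 31754 TPM and was not called (0.18, SE 0.119, limma adjusted p = 0.249). Control rank 4 rose in mean from 20881 ± 4882 to 30167 ± 3380 TPM (SD, n = 3) without overlap between the groups, and its limma adjusted p of 0.0501 was just above the threshold of 0.05. Under median-of-ratios scaling, which divides each library by the median ratio of its genes, ranks 1, 2 and 4 were called higher as well, at 0.48, 0.62 and 1.00 on the log2 scale.

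Gene16113, control rank 3, went the opposite way and had the largest fall in TPM. It was listed at 22890, 28476 and 28081 TPM in the controls and at 8056, 7068 and 6711 TPM at low CO2. The groups lay far apart, the control mean being 3.64 times that at low CO2, and the gene dropped to rank 21. On the log2 scale it changed by -1.86 (SE 0.137, limma adjusted p = 0.000232) and by -1.42 under median-of-ratios scaling. Control rank 14 fell more steeply, from 8089, 7951 and 9087 TPM to 1269, 689 and 1249 TPM, which is -3.02 on the log2 scale (SE 0.247, limma adjusted p = 0.000278).

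**Figure D3:**
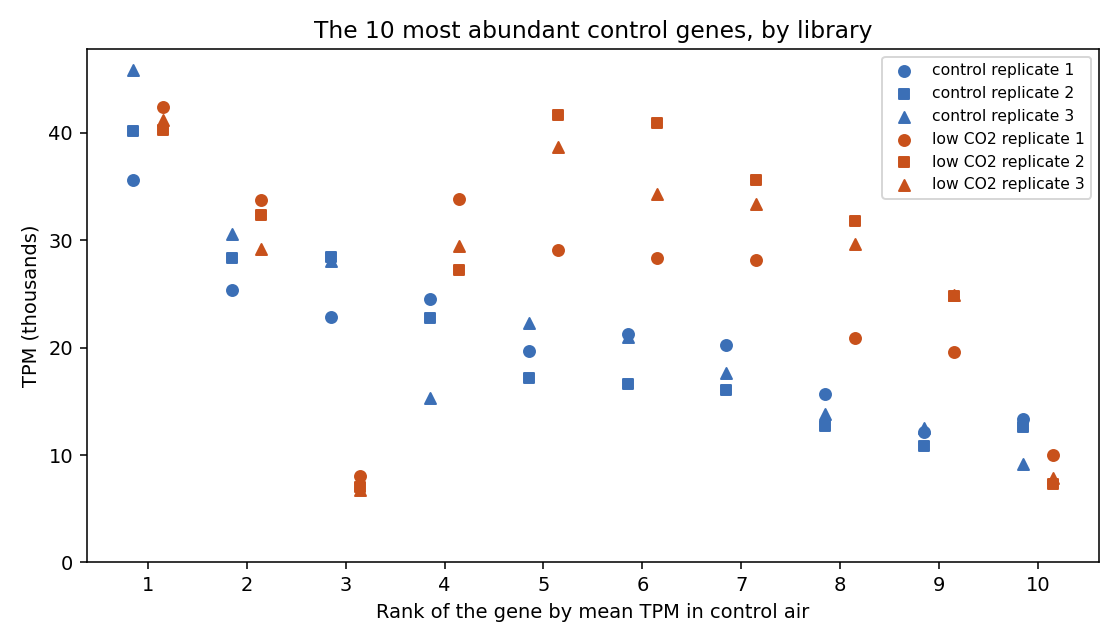
TPM in units of 1000 (y axis) of the 10 genes with the highest mean TPM in control air (x axis, by that rank), with 1 point per library, controls in blue to the left and low CO2 in orange to the right. The low CO2 points of ranks 5 to 9 lie above all their controls, those of rank 3 lie between 6711 and 8056 TPM, below its controls, and those of rank 1 lie among its controls.

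Further down, genes changed places as well. Of the 100 most abundant genes by group mean, 83 were shared and 17 entered at low CO2 in place of 17 that left. The genes that entered came from a median control rank of 136 and at most from rank 194. The gene that came from rank 194 was listed at 90.0, 76.0 and 1289 TPM in the controls and at 4827, 4304 and 5095 TPM at low CO2. Its groups did not overlap, although control replicate 3 stood apart from the other controls, and it rose by 4.51 on the log2 scale (SE 0.996, limma adjusted p = 0.00917). Of the 100 genes that led in control air, 31 rose and 27 fell by the limma call, where 8.36% of all tested genes were called higher and 41.5% lower. These numbers became 56 and 11 under median-of-ratios scaling.

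The genes with the highest and the lowest log2 fold change, described next, spread widely between libraries of the same group. Among called genes without overlap between the groups, Gene08250 had the highest value. Its TPM was 11.8, 1.71 and 218 in the controls and 258, 1001 and 859 at low CO2, so that control replicate 3 nearly reached the lowest low CO2 library. It rose by 4.95 on the log2 scale (SE 1.47, limma adjusted p = 0.0279), and it was not called without control replicate 1 or 2 (4.64 and 3.52, limma adjusted p = 0.0813 and 0.0601) or without low CO2 replicate 2 or 3 (4.59 and 4.70, limma adjusted p = 0.0861 and 0.0814). Over all alternatives its adjusted p lay between 0.00177 and 0.0861. Gene09036 had the lowest value of those genes, with 1838, 99.8 and 1137 TPM in the controls and 7.39, 1.77 and 1.99 TPM at low CO2. It moved from control rank 111 to rank 9269 at low CO2 and changed by -7.18 on the log2 scale (SE 1.05, limma adjusted p = 0.00188).

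The response was next compared between the expression classes, using the fit across all 14194 genes. In that fit 1187 genes were called higher (8.36%) and 5888 lower (41.5%), and the libraries of the groups did not overlap in 60.3% of genes. Of the 881 abundant genes, 165 were higher (18.7%) and 272 lower (30.9%). Of the 5302 middle genes, 427 were higher (8.05%) and 2582 lower (48.7%). Of the 8011 low genes, 595 were higher (7.43%) and 3034 lower (37.9%). Higher calls thus made up a larger share of the abundant class than of all tested genes, and lower calls a larger share of the middle class. The number of higher calls changed when single libraries were left out: in the abundant class it was 94 with control replicate 2 left out, and 108 or 89 with low CO2 replicate 2 or 3 left out. In the low class, leaving out low CO2 replicate 2 or 3 gave 386 or 389. Over all classes it was 763 without low CO2 replicate 3. Lower calls dropped as well, from 5888 to 4676 without control replicate 2 and to 4556 or 4564 without low CO2 replicate 2 or 3. Each such fit has fewer libraries.

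The median log2 fold change was -0.18 in the abundant, -0.48 in the middle and -0.32 in the low class, beside -0.36 over all tested genes. The abundant class stood less apart when classes were set by the control libraries alone, which also changed the members of each class. The abundant median was then -0.37, beside -0.54 in the middle and -0.25 in the low class. This abundant class had 115 higher and 403 lower genes, beside 1187 and 5888 over all tested genes. With class limits of 50 and 5 TPM the abundant median was -0.29. Levels of the median gene followed: it was at 23.7, 24.5 and 24.1 TPM in the controls of the middle class and at 17.2, 16.0 and 17.2 TPM at low CO2. In the low class it was at 3.94, 4.08 and 4.16 TPM against 2.90, 2.95 and 3.09 TPM. The pseudocount of 1 holds the fold changes of the low class down, so the classes are not strictly comparable in size. On the log2(TPM + 1) scale the median residual SD between libraries was of like size, at 0.243 (abundant), 0.214 (middle) and 0.220 (low). The pseudocount holds the SD of the low class down as well.

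How far this depends on the scale was examined by median-of-ratios scaling, which moves the median of all genes from -0.36 to 0.01. Under it 2514 genes were higher (17.7%) and 2806 lower (19.8%). The abundant class then had 292 higher (33.1%) and 133 lower genes (15.1%), the middle class 992 (18.7%) and 1284 (24.2%), and the low class 1230 (15.4%) and 1389 (17.3%). The direction of the larger side therefore turned in the abundant class, from lower to higher genes, and did not turn in the other classes. The abundant class had the largest share of higher genes under both scalings. Quantile normalization, which forces the same distribution of levels on every library, left 201 higher and 179 lower abundant genes, 1103 and 1167 middle genes and 1300 and 1323 low genes. Between deposited TPM and median-of-ratios scaling, each of the 1187 genes called higher on the deposited scale was called higher on both, and each of the 2806 genes called lower under median-of-ratios scaling was called lower on both. This is no separate check, since that scaling multiplies all genes of a library by the same factor.

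Finer steps of level showed where the change lay. In the steps from 1 to under 100 TPM, between 7.17% and 8.95% of genes were called higher, a nearly flat share, while the share called lower ran from 24.7% at 1 to under 2 TPM up to 50.7% at 20 to under 50 TPM. From 100 to under 1000 TPM the higher share was 14.3%, 19.2% and 16.5% in the 3 steps. Among the 103 genes at 1000 TPM or more it was 38.8%, with 40 higher and 18 lower genes, and under median-of-ratios scaling 66 were higher and 7 lower. These 103 genes held 53.4%, 53.1% and 54.3% of the TPM in the controls and 62.9%, 64.7% and 63.3% at low CO2. On the deposited scale their median log2 fold change was 0.18, the only step with a median above 0.

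**Figure D4:**
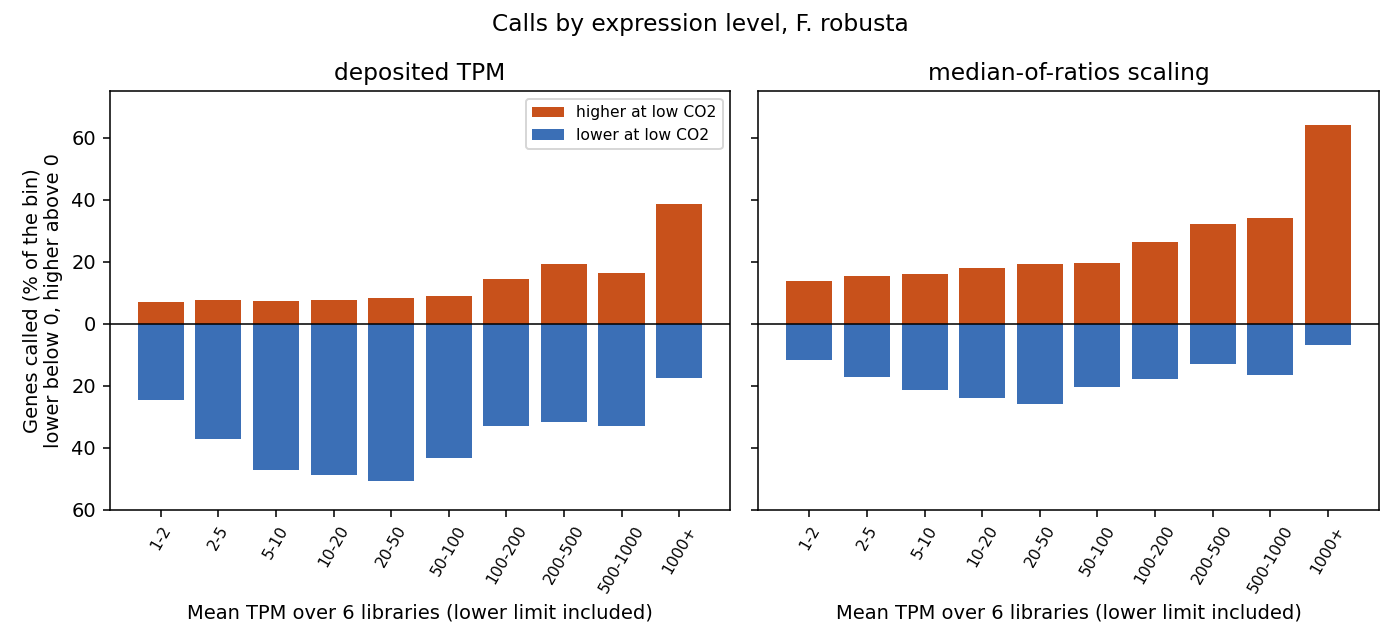
Share of genes called by limma (y axis, % of the genes in the step), higher at low CO2 above 0 and lower below 0, by mean TPM over the 6 libraries (x axis), on deposited TPM (left) and under median-of-ratios scaling (right). The higher share is largest at 1000 TPM or more in both panels, 38.8% on deposited TPM and 64.1% under median-of-ratios scaling.

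Changes of at least 2-fold were unequal in number too. Rises and falls of at least 2-fold on the log2(TPM + 1) scale were counted among called genes. The rises numbered 54 of 881 abundant, 180 of 5302 middle and 273 of 8011 low genes, beside 507 of all 14194. The falls numbered 144 abundant, 1164 middle and 1137 low genes, beside 2445 of all. Under median-of-ratios scaling the counts were 136, 429 and 513 for higher genes, beside 1078 of all. For lower genes they were 85, 575 and 636, beside 1296 of all. In the abundant class the 2-fold rises thus outnumbered the 2-fold falls on that scale, as they did after rescaling to the TPM outside the top 100 genes (110 against 92), but not on deposited TPM or under quantile normalization (78 against 103).

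Genes that were switched on or off were rare. A gene was counted as switched on with a TPM under 1 in the 3 controls and of 5 or more in the 3 low CO2 libraries, and as switched off in the reverse case. By this rule 4 genes were switched on and 43 were switched off. The rule uses the measured values, so these genes are described without a test. Just inside the limit, with a lowest value from 5 to under 6 TPM in the group where they were on, lay 2 of the switched-on and 12 of the switched-off genes, and just outside it, from 4 to under 5 TPM, lay 1 and 26 further genes.

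The 4 switched-on genes were all low in level. The highest had 0.190, 0.210 and 0.830 TPM in the controls and 8.06, 10 and 10.9 TPM at low CO2. Another had 0.390, 0.180 and 0.910 TPM and then 9.14, 8.11 and 5.35 TPM. The group means of the 4 genes at low CO2 were between 7.08 and 9.65 TPM, and 0 of them were listed at 0 in all controls. Their TPM at low CO2 added up to 37.4, 34.5 and 29.0 in the 3 libraries, which is 0.00365% of the table's TPM. The count rose to 15 without control replicate 3 and to 13 without low CO2 replicate 1.

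The 43 switched-off genes reached higher. The leading gene had 82.9, 37.0 and 246 TPM in the controls and 0.180, 0.220 and 0.610 TPM at low CO2, and it was the only switched-off gene with a control mean of 100 TPM or more. The next had 16.0, 33.2 and 19.1 TPM and then 0.0800, 0.220 and 0.810 TPM. In all, 19 of the 43 had a control mean of 10 TPM or more, and the median was 9.33 TPM. Most were thus weakly expressed genes, and by the mean over 6 libraries 38 belonged to the low and 5 to the middle class. Their TPM added up to 523, 510 and 688 in the controls and to 21.4, 11.8 and 18.1 at low CO2.

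Silence was seldom complete. Of the 129 values of the switched-off genes at low CO2, 6 were listed at 0, and in 0 of the 43 genes were all 3 low CO2 libraries at 0. Low CO2 replicate 1 had the highest residual value in 23 of the 43 genes, and low CO2 replicate 2 had the lowest in 28 of them. Without low CO2 replicate 1 the count of switched-off genes was 66. With 10 TPM in place of 5 as the upper limit it was 11, with 0 genes switched on. Under median-of-ratios scaling 25 genes were switched off and 5 on.

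**Figure D5:**
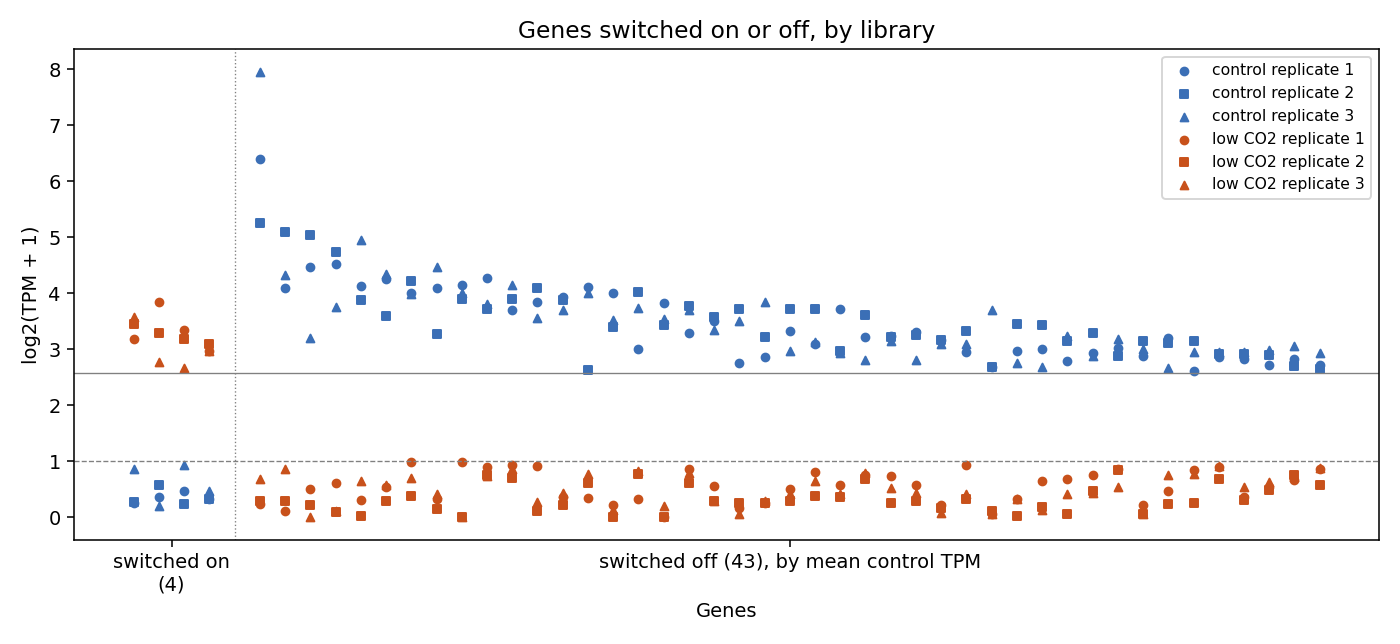
log2(TPM + 1) (y axis) of the 4 switched-on genes (left) and the 43 switched-off genes (right, ordered by mean control TPM), with 1 point per library, controls in blue and low CO2 in orange. The dashed line marks 1 TPM and the solid line 5 TPM. By the rule that chose them no points lie between the lines, and all but the leading switched-off gene stay under 100 TPM in their control mean.

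A wider count gave the same inequality. A TPM of 1 or more in all 3 controls and under 1 in all 3 low CO2 libraries was found for 498 genes, and the reverse for 113 genes. Under median-of-ratios scaling the counts were 306 and 227, still higher for the losses but much closer. A total of 12093 genes were at 1 TPM or more in all 6 libraries.

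The switched genes were then looked up in the other species, whose libraries the rule did not use. In F. sonorensis, a C3-C4 intermediate, 29 of the 43 switched-off genes had a mean TPM of 1 or more and were tested. Of these, 17 were called lower and 0 higher at low CO2, where 15.4% of all tested genes of that species were called lower and 4.54% higher. Their median log2 fold change there was -1.43, beside -0.17 over all its tested genes. In F. trinervia, the C4 species, 2 of 29 tested were called lower, where 1.41% of all its tested genes were, and their median was -0.97 beside -0.12. In F. ramosissima, the other intermediate, 0 of 24 were called by limma, where 0.189% of all its tested genes were called lower, and their median was -0.33 beside 0.00. Of the 43 genes, a mean under 1 TPM kept 14 out of the F. sonorensis test, 14 out of that of F. trinervia, and 19 out of that of F. ramosissima. The on and off limits picked few genes of any kind in these species, with 8, 8 and 0 switched off over the whole table in the same order, and none of these was among the 43. Of the 4 switched-on genes, 1 was tested in F. sonorensis, where it was called higher at a log2 fold change of 1.25. In F. ramosissima 1 was tested and not called, at 1.43 and without overlap between the groups. Of the 15899 genes tested there, 16 were called higher and 1076 rose without overlap. In F. trinervia 3 were tested without a call, at a median of 0.14. There 25 of 13873 tested genes were called higher.

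The named genes were expressed at quite different levels elsewhere. Gene00282 had control and low CO2 means of 7587 ± 1551 and 6836 ± 558 TPM (SD, n = 3) in F. sonorensis, 3866 ± 865 and 3094 ± 845 in F. ramosissima, and only 3.59 ± 2.70 and 4.59 ± 2.79 in F. trinervia. The difference between its response in F. robusta and the mean response of the other species was 0.89 (SE 0.467, limma adjusted p = 0.1498), not past the threshold. Gene16113 was listed at 0 in the 6 libraries of F. sonorensis and had 4004 ± 885 and 3378 ± 779 TPM in F. ramosissima and 12655 ± 1429 and 11705 ± 3558 in F. trinervia. It was called in neither of the latter (log2 fold change -0.24 and -0.15, limma adjusted p = 0.814 and 0.792). Because Gene16113 is at 0 in 1 species, the difference between species was not tested for it, nor for Gene08250 and Gene09036, which were listed at 0 in the 6 libraries of F. ramosissima. Gene09036 was called lower in F. sonorensis as well, its mean going from 280 ± 192 TPM to 22.5 ± 11.98 TPM (SD, n = 3) (log2 fold change -3.37, SE 0.719, limma adjusted p = 0.0166). Levels across species also carry any difference between their references.

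Whether a gene responded differently in F. robusta was tested gene by gene in a model over all 24 libraries. The contrast was the F. robusta response minus the mean response of the other 3 species. Calls are counted by class below, and no class was tested as a whole. Of the 8863 genes with a mean TPM of 1 or more in each species, 2698 were called (30.4%), 634 with a higher and 2064 with a lower response in F. robusta. On simulated data this comparison made more false calls than its nominal share, so its counts may be too high. In the abundant class of F. robusta, 94 of 696 genes responded higher and 147 lower. In the middle class 290 of 4255 were higher and 1206 lower, and the low class had 250 of 3912 higher, with 711 lower. After scaling by the median of ratios, 2344 genes were called (26.4%). The abundant class then had 138 higher and 70 lower genes, and the median difference was 0.25 in the abundant, -0.03 in the middle and 0.01 in the low class. Over all genes, leaving out F. robusta control replicate 2 gave 1790 calls, and leaving out its low CO2 replicate 2 gave 1593. In F. sonorensis alone, the abundant genes of F. robusta had a larger share of higher calls than all its tested genes as well, with 104 of 733 higher and 130 lower and a median of 0.04 beside -0.17, so a difference from the mean of 3 species does not set F. robusta apart from each of them. Concentration itself was not tested between species. The number of genes holding 50% of the TPM went from 208 ± 83.2 to 118 ± 10.02 (SD, n = 3) in F. sonorensis, from 121 ± 20.8 to 130.0 ± 44.1 in F. ramosissima and from 120.0 ± 20.7 to 88.3 ± 27.5 in F. trinervia. In F. sonorensis each measure of concentration moved as in F. robusta without overlap between its groups (exact permutation p = 0.1). Its effective number of genes went from 1576 ± 342 to 1118 ± 59.1 (SD, n = 3). In F. trinervia the exact permutation p was 0.1 or 0.2, and in F. ramosissima no measure reached 0.1.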

How the data were processed

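RNA from newly expanded mature leaves was sequenced as paired Illumina reads of 150 bp. The authors deposited TPM in a single table of 24 libraries, which were matched to the labels by their descriptions. The submitters' processing notes name RSEM and edgeR. Not stated in the sources used here are versions, aligner, reference and how the species came to share rows. TPM is relative to the library and keeps no depth.

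Genes with a mean TPM of 1 or more were tested on log2(TPM + 1) with limma 3.58.1 in R 4.3.3 (lmFit, eBayes with trend), and those with a Benjamini-Hochberg adjusted p under 0.05 are called. The other species were fitted alone and, for differences between species, in a model of 8 group means. Shares and numbers of genes, with 1 value per library, were tested by exact permutation (two-sided). Scripts were tested on simulated data, where the comparison between species made more false calls than its nominal share. Plots used matplotlib 3.10.9 in Python 3.11.15.

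Members, classes and lists were chosen with earlier results of these data known. The finer steps of level, the wider on and off count and the group of control ranks 5 to 9 were chosen after the values were seen. IDs are printed for the called genes, without overlap between groups, that had the largest rise and fall in mean TPM and the highest and lowest log2 fold change. Others are given by rank. The alternatives were another pseudocount, other filters, scalings, prior spreads, class and on/off limits, other definitions of shares and of top genes, the replicate number as a block, and leaving out each library.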

Additional observations from a re-analysis of the deposited data

How the results depend on the processing

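Of all settings of the F. robusta fit, the minimum mean TPM of 5 left the fewest calls, 5082 beside 7075, but tested fewer genes. Among settings that kept the tested genes, quantile normalization left the fewest, 5273. Scaling moved the balance of higher and lower calls. Rescaling to the TPM outside the top 100 genes left 2109 higher and 3407 lower: 266 and 159 abundant, 847 and 1565 middle, 996 and 1683 low. With median-of-ratios scaling 2514 were higher and 2806 lower: 292 and 133 abundant, 992 and 1284 middle, 1230 and 1389 low. Quantile normalization gave 2604 higher and 2669 lower: 179 lower abundant, 1103 and 1167 middle, 1300 and 1323 low. Class medians turned positive in the abundant class, at 0.16, 0.26 and 0.049 under these settings in the same order, and in the low class, at 0.019 under median-of-ratios scaling and 0.037 under quantile normalization. The cause was not tested. Class limits of 50 and 5 moved 749 genes at 50 to under 100 TPM into the abundant class. They also moved 2807 genes at 5 to under 10 TPM out of the low class. In these classes of other sizes, 597 abundant genes were lower, and 388 low genes were higher and 1710 lower. Over all 14194 tested genes the calls stayed at 1187 higher and 5888 lower.

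Leaving out each library gave 763 to 1354 higher genes, 89 to 163 higher abundant genes and 386 to 707 higher low genes, 4 to 15 switched-on and 47 to 66 switched-off genes. The top gene's share differed by -0.167 to 0.394 points. Limits of 1 and 10 TPM gave 0 switched-on and 11 switched-off genes, and median-of-ratios scaling 25 switched off. For F. robusta minus the other species, 1206 genes were higher and 1138 lower with median-of-ratios scaling, and leaving out a library 1593 to 2685 called, 389 to 697 higher and 1204 to 2003 lower. A replicate block in the F. robusta fit left 6556 calls. Deviations of same-numbered libraries correlated at 0.250, -0.321 and 0.290. Libraries of unlike numbers were not compared, so whether the numbers pair the libraries was not tested. TPM keeps no depth, so limits of detection cannot be given.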
